A study of Mus musculus with 4 samples.

Results

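The exons described here are 159 cassette exons, exons that a transcript can include or skip, of 99602 measured in N2A cells, a mouse neuroblastoma line. Their inclusion was at least 15 percentage points above control when Ptbp1 and Ptbp2 were depleted together, while depletion of Ptbp1 alone left them less than 15 points above control. They were chosen by those 3 libraries, so the values in them describe the choice and were not tested. In 154 of the 159 the double knockdown had the highest inclusion of the 4 libraries, and the widest rises were in Socs7, Wdr7, Sympk, Arhgef10l, Faim and Myo9a. They are called double-knockdown exons below. The control cells were transfected with a control shRNA, the Ptbp1 knockdown with an shRNA against Ptbp1, the Ptbp2 knockdown with one against Ptbp2, and the double knockdown with both, and each group held 1 library. Lipid complexes were left with the suspended cells for 5 hours and the cells were then grown for 3 days. Poly(A) RNA was sequenced strand-specifically as paired reads of 100 bases. With 1 library per group there was no spread between replicates to hold a difference against and no test across samples. All intervals below are 95% intervals of the counting error of junction reads alone.

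The proteins of both genes belong to the polypyrimidine tract-binding family, whose members bind stretches of U and C in pre-mRNA and most often keep nearby exons from being included. Ptbp1 is made in most cell types, and Ptbp2 replaces it as neurons form. Ptbp1 also holds Ptbp2 low, because it promotes skipping of a Ptbp2 exon whose loss exposes the transcript to nonsense-mediated decay, the pathway that removes mRNA with early stop codons. The paralogs are close in sequence and bind like motifs, so cells that lose Ptbp1 can gain Ptbp2 on the same pre-mRNA.

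The sequences of 6 of the wholly coding exons with the widest rises are shown first, because they give the pyrimidine content of exons that responded to the double depletion. They were read from GENCODE transcripts of the reference mouse (GRCm38), not from N2A reads, matched to the measured exon by chromosome, strand, length and both flanking introns. Capitals mark TCTT, TTCT or CTCT, which can overlap, and positions are on mm9.
Socs7, 102 nucleotides, chr11:97238311-97238412, plus strand: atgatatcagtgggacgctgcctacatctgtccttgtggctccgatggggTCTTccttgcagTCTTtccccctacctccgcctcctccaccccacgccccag
Arhgef10l, 117 nucleotides, chr4:140142699-140142815, minus strand: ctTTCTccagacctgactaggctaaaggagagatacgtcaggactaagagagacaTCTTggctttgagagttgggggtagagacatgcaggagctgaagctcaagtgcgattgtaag
Myo9a, 54 nucleotides, chr9:59760344-59760397, plus strand: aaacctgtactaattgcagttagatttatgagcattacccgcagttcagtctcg
Tbc1d5, 66 nucleotides, chr17:50935251-50935316, minus strand: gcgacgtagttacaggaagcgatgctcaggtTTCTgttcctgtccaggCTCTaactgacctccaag
Ablim1, 105 nucleotides, chr19:57125620-57125724, minus strand: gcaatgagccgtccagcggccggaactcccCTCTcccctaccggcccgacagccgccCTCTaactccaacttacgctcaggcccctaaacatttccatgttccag
Pip5k1c, 78 nucleotides, chr10:80780071-80780148, plus strand: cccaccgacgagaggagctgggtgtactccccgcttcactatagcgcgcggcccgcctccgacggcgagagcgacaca

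The Socs7 exon held 66.7% pyrimidines with 2 of these 4-base words, and the Ablim1 exon 61.9% with 2. Arhgef10l stood at 39.3% pyrimidines, and the exons of Myo9a and Pip5k1c held none of the words. A wide rise was thus seen in exons with and without them.

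Abi2 and R3hdm2 each gave 2 nested exons, which share one splice site and differ at the other. Capitals mark the shorter form, which is the 3′ part of the Abi2 exon (chr1:60506915-60507097, plus strand) and the 5′ part of the R3hdm2 exon (chr10:126918749-126918850, plus strand).
Abi2, 183 nucleotides with the 84-nucleotide form in capitals: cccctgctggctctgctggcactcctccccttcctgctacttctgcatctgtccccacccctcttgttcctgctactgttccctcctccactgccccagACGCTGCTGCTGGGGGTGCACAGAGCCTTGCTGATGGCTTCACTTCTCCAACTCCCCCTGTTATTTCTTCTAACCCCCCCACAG
R3hdm2, 102 nucleotides with the 63-nucleotide form in capitals: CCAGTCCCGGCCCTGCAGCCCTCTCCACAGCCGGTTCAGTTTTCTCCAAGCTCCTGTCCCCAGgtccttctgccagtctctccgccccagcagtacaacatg

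The paralogs Mbnl1 and Mbnl2 each gave a 54-nucleotide coding exon, at chr3:60418605-60418658, plus strand and chr14:120794934-120794987, plus strand. These exons were identical at 46 of 54 bases (85.2%), and capitals mark the 8 that differ.
Mbnl1: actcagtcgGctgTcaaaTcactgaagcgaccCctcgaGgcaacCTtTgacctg
Mbnl2: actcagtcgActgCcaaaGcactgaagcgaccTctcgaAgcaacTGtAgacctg

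The targeted genes were depleted as labelled, though not fully. Ptbp1 stood at 634 CPM (exon reads per 1 M, scaled between libraries) in control, 188 after its own depletion, 725 after that of Ptbp2 and 142 after both. Ptbp2 stood at 136, 269.8, 36.8 and 57.8 CPM in the same order. So Ptbp2 was at 198% of control in the Ptbp1 knockdown, and at 42.4% in the double knockdown against 26.99% in the Ptbp2 knockdown. Ptbp1 was lower in the double knockdown than in the Ptbp1 knockdown. A difference between those libraries therefore goes with less Ptbp1 as well as less Ptbp2. In bulk RNA fewer depleted cells and less depletion per cell cannot be told apart. Ptbp3, another member of the family that the labels do not name as a target, was also lower in every knockdown. It stood at 149 CPM in control and at 80.5, 89.5 and 79.6 CPM in the Ptbp1, Ptbp2 and double knockdowns. Its part in the exon differences was not tested. The exon reads summed to between 206.98 M and 258 M per library. The neuronal marker Tubb3 was present in all 4 libraries, at 321 to 467 CPM, while the leukocyte gene Ptprc and the astrocyte genes Gfap and Aqp4 were at 0 to 0.128 CPM.

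Inclusion was the mean of the reads on both junctions of an exon, divided by that mean plus the reads on the junction that skips it, and an exon needed 20 or more of these reads per library. By this measure the rule took 0.160% of the 99602 measured exons. Most measured exons were included nearly always, so that only 3244 had a control inclusion of at most 85% and could rise by 15 points, and the members were 4.90% of those. In all, 373 exons were raised by 15 points or more in the double knockdown (0.374% of measured exons and 11.5% of those that could rise). In the Ptbp1 knockdown 279 exons rose by 15 points (0.280% of measured exons and 8.60% of those that could rise). Of the 373, 214 were also among those 279 and 159 (42.6%) are the double-knockdown exons. They lay in 149 genes, 9 of which held more than 1, and 154 remained when overlapping exons were counted once. Junction counts of an exon and its neighbours do not resolve nearby or nested alternative exons. Inclusion is therefore less certain for such members, as in Rgs7, Adam15, Abi2, R3hdm2, Golgb1 and Trerf1.

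**Figure D1:**
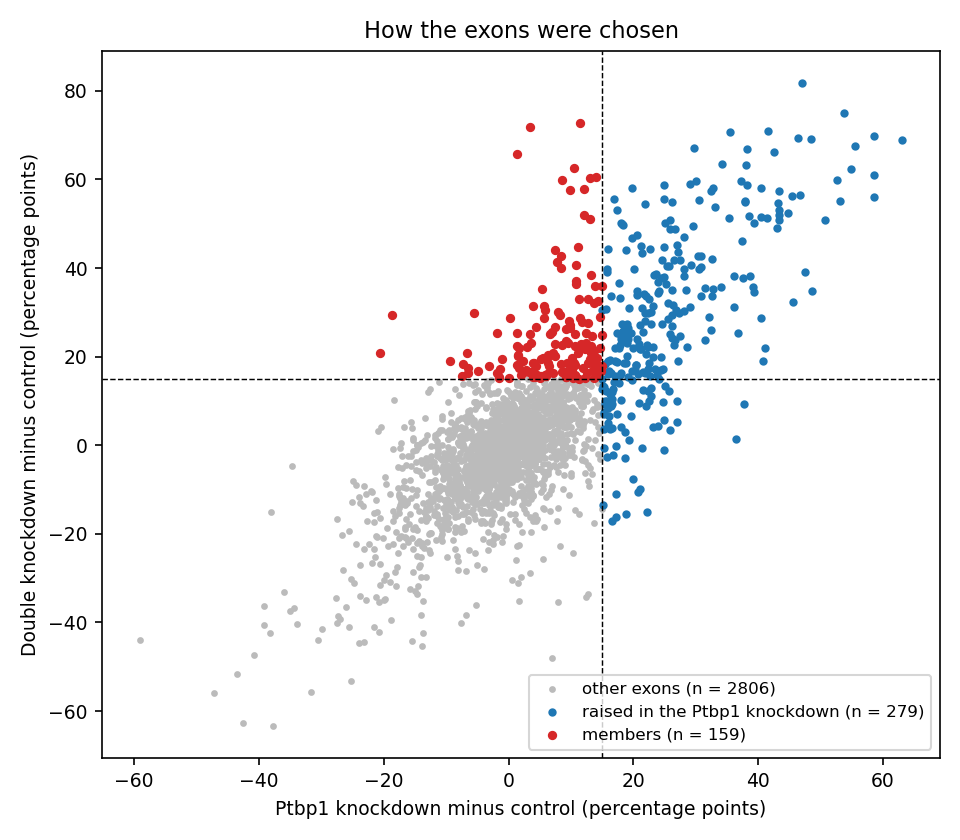
Each point is 1 of the 3244 exons with a control inclusion of at most 85%; the horizontal axis is the Ptbp1 knockdown minus control and the vertical axis the double knockdown minus control, both in percentage points of junction inclusion, with dashed lines at 15 points. The 159 members (red) fill the upper left field by the rule, and most of them lie right of 0, since 141 were above control in the Ptbp1 knockdown.

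The description of these exons as raised only when both proteins were depleted depends on the limit used. For the Ptbp1 knockdown the rule itself sets that limit at 15 points, and smaller rises were common there. In the Ptbp1 knockdown 141 of 159 were above control at all (background 16.3% of measured exons and 51.1% of those that could rise), 47 by 5 to 10 points and 67 by 10 to 15 points. The interval of that difference lay above 0 in 65 exons and below 0 in 1, and no background share is given for these interval counts. Over the exons that could rise, the quartiles of the difference itself were -2.81 and 4.51 points. In the Ptbp2 knockdown 18 were at least 15 points above control (background 0.0773% of measured exons), so 141 were not raised by 15 points in either single knockdown. Within 5 points of control in both single knockdowns were 17 of the 159, the exons of Wdr7 and Sympk among them. No background share is given for that count either. Every one of these differences shares the control library with the rule, so an exon with a low reading in that library is more likely to be a member. Set against the Ptbp1 knockdown directly, the double knockdown was higher by 15 points or more in 74 of the 159. It was higher by under 5 points in 17, and the interval of that difference lay above 0 in 103. Both of those libraries are in the rule, so these counts describe the choice.

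The rise in the double knockdown had a median of 20.5 points and ranged from 15.1 to 72.7, with an interval above 0 in 141 of 159. Median inclusion over the 159 was 41.02% in control, 44.2% after Ptbp1 depletion, 42.3% after Ptbp2 depletion and 66.8% after both. In control, 44 exons were included below 10%, 50 between 10% and 50%, and 65 at 50% or above. In the double knockdown, 102 were included above 50%. A passage from below 10% to above 50% was seen in 8 exons. The double knockdown exceeded the sum of both single differences by at least 15 points in 64 exons and fell short of that sum in 27. The rule asks for a high double knockdown and a limited Ptbp1 knockdown, so it favours such an excess. These counts describe the choice, and additivity was not tested.

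Just inside the limits lay the exons of Acer3, Nras, Epg5, Stam2 and Gm16973, with rises of 15.1 to 15.2 points, and those of Zfp939, Kdm6a, Rgs7 (81 nucleotides), Mff, Emsy and Gtf3c4, with Ptbp1 differences of 14.6 to 14.99 points. Just outside lay exons of Slc25a25, Ilkap, Adgrl2, Gabpb2 and Nrp2, at 14.8 to 14.97 points above control in the double knockdown. The exons of D430042O09Rik, Tubd1, Phldb1, Tbp, Snap23 and Rpn2 were left out by Ptbp1 differences of 15.0 to 15.8 points. Snap23 and Rpn2 rose by 39.9 and 39.1 points in the double knockdown, so exons much like the members lie across that line.

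**Figure D2:**
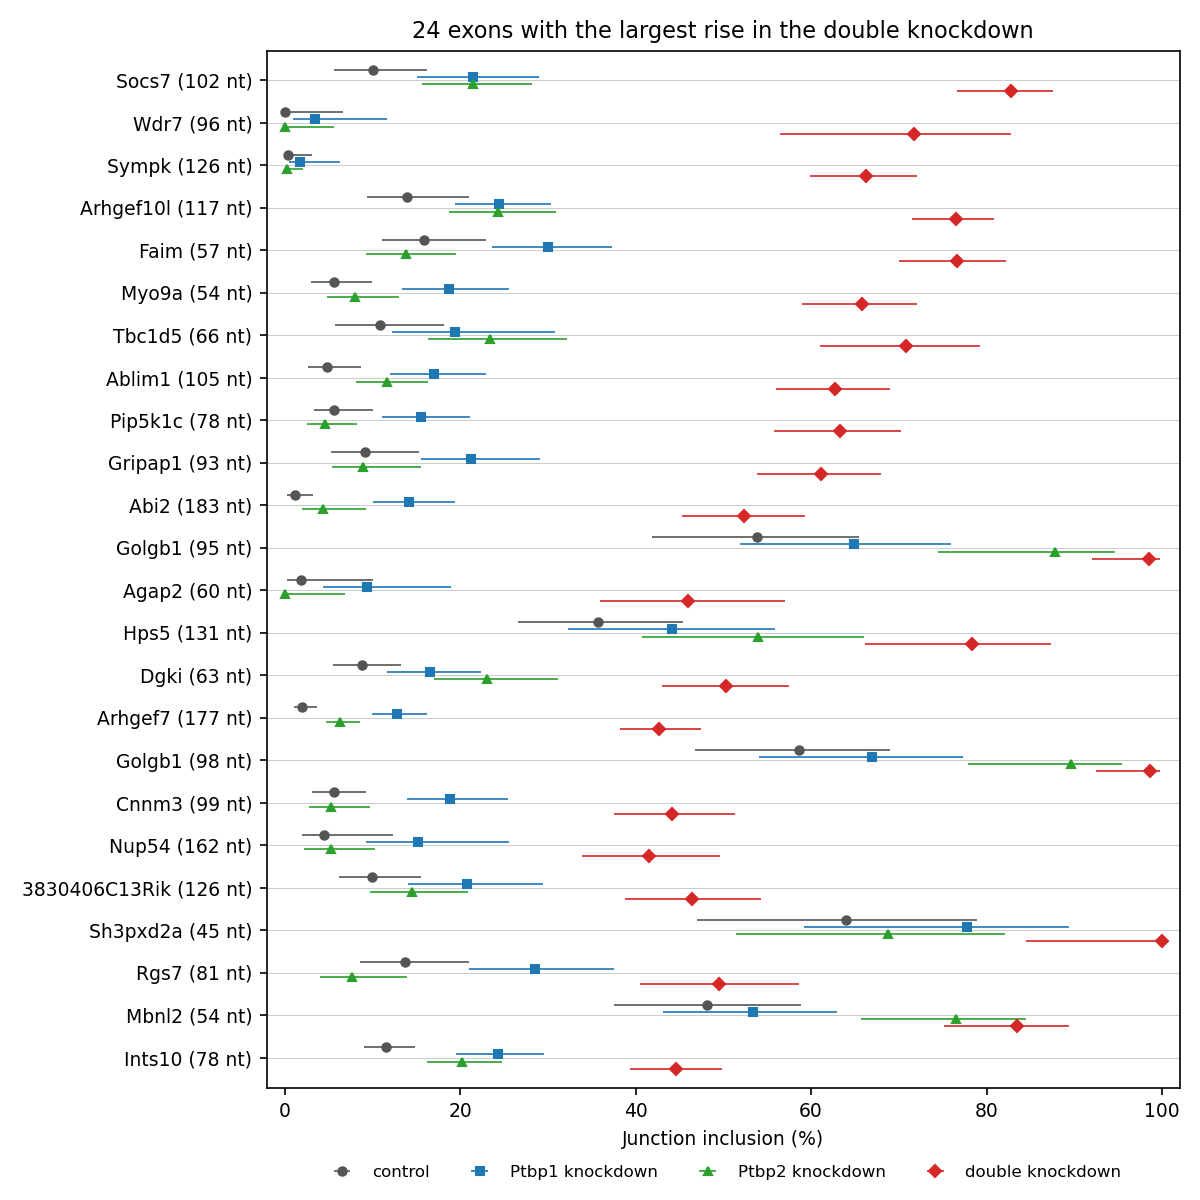
Junction inclusion in percent (horizontal axis) of the 24 members with the widest rise, in control (circles), Ptbp1 knockdown (squares), Ptbp2 knockdown (triangles) and double knockdown (diamonds); bars are 95% Wilson intervals of counting error. In 19 of the 24 control inclusion was below 20%, and the diamonds stand right of every other symbol in each line.

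Among regulators of small GTPases and signalling, Socs7 had the widest rise of all. Socs7 encodes a SOCS-box protein, an adaptor of ubiquitin ligases. Its 102-nucleotide exon was included at 10.1% (5.67 to 16.3) in control, 21.5% (15.1 to 28.9) after Ptbp1 depletion, 21.5% (15.6 to 28.2) after Ptbp2 depletion and 82.8% (76.6 to 87.6) after depletion of both, a rise of 72.7 points (64.03 to 79.3). Both single knockdowns stood near each other and far below the double. Arhgef10l, an exchange factor for small GTPases, had its 117-nucleotide exon at 13.98% (9.44 to 21.04) in control, 24.5% (19.4 to 30.4) after Ptbp1 depletion, 24.3% (18.8 to 30.9) after Ptbp2 depletion and 76.5% (71.5 to 80.8) after depletion of both. The 54-nucleotide exon of Myo9a, a myosin that carries a GTPase-activating domain, was at 5.59% (3.06 to 9.98) in control, 18.7% (13.4 to 25.6) after Ptbp1 depletion, 8.05% (4.85 to 13.1) after Ptbp2 depletion and 65.8% (58.9 to 72.1) after depletion of both. In both genes the intervals of the double knockdown and of the other 3 libraries did not overlap. Tbc1d5, a GTPase-activating protein for Rab7 that works with the retromer, had a 66-nucleotide exon at 10.9% in control, 19.4% after Ptbp1 depletion, 23.4% after Ptbp2 depletion and 70.8% after depletion of both, a rise of 59.9 points (48 to 70.02). Arhgef7, the exchange factor beta-PIX, held a 177-nucleotide exon (chr8:11824505-11824681, plus strand) at 2.05% in control, 12.8% after Ptbp1 depletion, 6.35% after Ptbp2 depletion and 42.7% after depletion of both. This exon was rarely used in control, and its junctions rose unevenly, by 52.9 and 18.9 points. By the deposited SpliceTrap ratio it stood at 5.30%, 18.5%, 9.50% and 53.5% in control, Ptbp1, Ptbp2 and double knockdown. Agap2 encodes a GTPase-activating protein for Arf. Its 60-nucleotide exon (chr10:126527198-126527257, plus strand) was at 1.92% in control, 9.38% after Ptbp1 depletion, 0% after Ptbp2 depletion and 46.01% after depletion of both, and the 0 of 52 reads in the Ptbp2 knockdown allows an inclusion of up to 5.77%.

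Rgs7, a regulator of G-protein signalling found in neurons, gave 2 neighbouring exons on chromosome 1. The 54-nucleotide exon (chr1:177006955-177007008, minus strand) stood at 48.5% in control, 60.3% after Ptbp1 depletion, 38.8% after Ptbp2 depletion and 76.2% after depletion of both, and both of its junctions taken alone rose, by 22.1 and 37.4 points. The 81-nucleotide exon (chr1:177006148-177006228, minus strand) stood at 13.7% in control, 28.6% after Ptbp1 depletion, 7.69% after Ptbp2 depletion and 49.6% after depletion of both. Its rise came from the junction on the side of lower coordinates, 43.4 points, while the other junction gave -1.94 points. Ralgps2, an exchange factor for Ral, and Rap1gap2, a GTPase-activating protein for Rap1, had smaller rises of 17.7 points (11.1 to 24.5) and 15.9 points (5.203 to 29.4), both in exons annotated in nonsense-mediated decay transcripts. Rap1gap2 was already at 84.1% in control and reached 100%.

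Of a list of kinases, phosphatases and GTPase regulators, 8 of 63 genes with an exon that could rise held a double-knockdown exon (12.7%, against 6.26% of all 2380 such genes). This list and those below were chosen with earlier results of these data known. Their shares are thus not independent of the data and were not tested. The members were in Arhgef7, Pip5k1c, Dgki, Dgkh, Pik3c2a, Inpp4a, Ralgps2 and Rap1gap2. Pip5k1c encodes the kinase that makes phosphatidylinositol 4,5-bisphosphate at synapses and adhesions. The 78-nucleotide exon shown above was at 5.68% (3.41 to 10.05) in control, 15.5% (11.1 to 21.2) after Ptbp1 depletion, 4.59% (2.51 to 8.24) after Ptbp2 depletion and 63.3% (55.8 to 70.2) after depletion of both. Its control and Ptbp2 knockdown values overlapped, the Ptbp1 knockdown lay above both, and the double knockdown was far above all. Dgki and Dgkh are diacylglycerol kinases. The 63-nucleotide Dgki exon (chr6:36944859-36944921, minus strand) was at 8.87% in control, 16.6% after Ptbp1 depletion, 23.1% after Ptbp2 depletion and 50.3% after depletion of both, and here the Ptbp2 knockdown was above the Ptbp1 knockdown. The 131-nucleotide Dgkh exon, with 25 to 58.5 reads, was at 31.6%, 41.5%, 52% and 58.8% in control, Ptbp1, Ptbp2 and double knockdown. In the lipid kinase Pik3c2a an untranslated exon stood at 50.8%, 45.9%, 53.8% and 67.6% in that order, and its rise of 16.7 points (-3.41 to 34.4) had an interval that reached below 0.

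The list of cytoskeleton and motor genes held 10 members in 9 of 58 genes (15.5%, against 6.26%), in Myo9a, Ablim1, Abi2, Actn1, Enah, Tpm3, Pxn, Map6 and Kif23. Ablim1 links LIM domains to actin, and its 105-nucleotide coding exon was at 4.88% (2.67 to 8.75) in control, 16.99% (12 to 22.9) after Ptbp1 depletion, 11.7% (8.196 to 16.3) after Ptbp2 depletion and 62.7% (56.1 to 68.96) after depletion of both. Abi2 is a subunit of the WAVE complex, which starts branched actin networks. The 183-nucleotide Abi2 exon stood at 1.15% (0.253 to 3.30) in control, 14.2% (10.1 to 19.5) after Ptbp1 depletion, 4.41% (2.04 to 9.29) after Ptbp2 depletion and 52.3% (45.3 to 59.3) after depletion of both. The rise of 51.2 points (44 to 58.4) was present on each of its junctions, 55.4 and 45.9 points. The nested 84-nucleotide form stood at 0.230%, 6.12%, 2.21% and 30.8%, but it shares its 3′ junction with the longer form, and the junction of its own rose by 7.07 points only.

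Actn1 encodes alpha-actinin, a cross-linker of actin. Its 66-nucleotide exon (chr12:81271170-81271235, minus strand) was at 71.4% in control, 78.4% after Ptbp1 depletion, 66.7% after Ptbp2 depletion and 96.98% after depletion of both. The junction reads behind these values, the mean of both inclusion junctions plus the skipping junction, went from 45.5 in control to 232 in the double knockdown. That was 5.10 times as many. By the deposited SpliceTrap ratio the same exon stood at 11%, 14.9%, 5.80% and 86.7% in control, Ptbp1, Ptbp2 and double knockdown, and its junctions alone rose by 15.5 and 60.7 points. The measures share the direction in the double knockdown but not the level, so the junction value of control is uncertain for this exon. Actn1 itself stood at 295 and 212 CPM in these libraries, so the junction reads and the level of the gene went in opposite directions, and the reason was not tested. Enah, a promoter of actin filament growth, held the longest member, an 843-nucleotide coding exon (chr1:183851789-183852631, minus strand) at 72.9% in control, 85.3% after Ptbp1 depletion, 59.5% after Ptbp2 depletion and 95.9% after depletion of both. It was lower in the Ptbp2 knockdown than in control, with an interval of the difference of -21.1 to -5.02 points. Tpm3, a tropomyosin, had a 79-nucleotide exon at 17.4%, 26.7%, 12.02% and 35.9% in control, Ptbp1, Ptbp2 and double knockdown, with 1090 to 3206.5 reads. The adhesion adaptor Pxn was at 17.8%, 31.97%, 23.4% and 37.5%, the microtubule stabiliser Map6 at 74.8%, 88.2%, 78% and 91.7% and the mitotic kinesin Kif23 at 41.6%, 45.5%, 48.1% and 56.9% in the same order. The rises of these 3 exons were between 15.3 and 19.7 points. Outside the list, Sh3pxd2a encodes TKS5, a scaffold of invasive adhesions, and its 45-nucleotide coding exon (chr19:47394766-47394810, minus strand) went from 63.9% in control, 77.8% in the Ptbp1 knockdown and 68.8% in the Ptbp2 knockdown to 100% of 21 reads in the double knockdown.

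A list of membrane traffic genes held 6 members in 5 of 52 genes (9.62%, against 6.26%), in Golgb1, Golga4, Cltb, Exoc1 and Eps15l1. Golgb1 encodes giantin, a tether of the Golgi. Its 95-nucleotide exon (chr16:36886220-36886314, plus strand) stood at 53.8% in control, 64.9% after Ptbp1 depletion, 87.8% after Ptbp2 depletion and 98.5% after depletion of both, and the 98-nucleotide form that differs at one splice site at 58.6%, 66.9%, 89.6% and 98.6%. In this gene the Ptbp2 knockdown stood nearer to the double knockdown than to control. The junction that only 1 form uses rose by 58.7 points for the shorter and 46.2 for the longer. Cltb, the clathrin light chain b, was among the deepest members, with 918 to 1510.5 reads. Its 54-nucleotide coding exon (chr13:54698387-54698440, minus strand) stood at 0.817% (0.468 to 1.58) in control, 9.97% (8.44 to 11.7) after Ptbp1 depletion, 0.654% (0.300 to 1.42) after Ptbp2 depletion and 24.5% (22.4 to 26.7) after depletion of both. The interval of the Ptbp2 difference included 0, and the double knockdown was above the Ptbp1 knockdown by 14.5 points (11.8 to 17.2). Golga4, another Golgi tether, stood at 10.3%, 20.9%, 19.5% and 35.5%, the exocyst subunit Exoc1 at 68.6%, 80.8%, 87.6% and 90.4% and the endocytic adaptor Eps15l1 at 79.05%, 93.2%, 73.8% and 96.7% in control, Ptbp1, Ptbp2 and double knockdown. The Exoc1 and Eps15l1 exons were used in most transcripts already in control.

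Other traffic genes outside the list had wider rises. Wdr7 takes part in assembling the proton pump of vesicles, and its 96-nucleotide coding exon (chr18:63951450-63951545, plus strand) had no inclusion read in control, 0 of 54 reads, which allows up to 5.56%. It was at 3.45% in the Ptbp1 knockdown, at 0 of 64 reads in the Ptbp2 knockdown, which allows up to 4.69%, and at 71.8% (56.4 to 82.8) in the double knockdown. The intervals of both single knockdowns overlapped that of control. Gripap1, a protein of recycling endosomes, had a 93-nucleotide coding exon (chrX:7380720-7380812, plus strand) at 9.16% in control, 21.3% after Ptbp1 depletion, 8.95% after Ptbp2 depletion and 61.1% after depletion of both. Hps5, a subunit of the complex BLOC-2 that builds lysosome-related organelles, had a 131-nucleotide exon of a nonsense-mediated decay transcript (chr7:54030524-54030654, minus strand) at 35.8% in control, 44.2% after Ptbp1 depletion, 53.98% after Ptbp2 depletion and 78.4% after depletion of both.

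Genes of RNA processing contributed 6 members in 6 of 55 genes of the splicing and RNA-binding list (10.9%, against 6.26%), in Mbnl1, Mbnl2, Hnrnpa2b1, Rbm39, Pum2 and Tnrc6c. Of the PTB family and its cofactors, 0 of the 6 genes that had an exon able to rise held a member. Mbnl1 and Mbnl2 are splicing regulators. Their 54-nucleotide exons are the pair shown above. Mbnl2 stood at 48.1% (37.6 to 58.9) in control, 53.4% (43.2 to 62.95) after Ptbp1 depletion, 76.5% (65.6 to 84.5) after Ptbp2 depletion and 83.4% (75.1 to 89.4) after depletion of both. Mbnl1 stood at 67.6% (61.2 to 73.4) in control, 60.3% (53.4 to 66.8) after Ptbp1 depletion, 84.6% (76.99 to 90.04) after Ptbp2 depletion and 85.9% (77.7 to 91.4) after depletion of both. In both paralogs the intervals of the Ptbp2 and double knockdowns overlapped, as did those of the Ptbp1 knockdown and control. The Mbnl1 gene was lower in both libraries with Ptbp2 depleted, at 134, 124, 61.9 and 66.4 CPM in control, Ptbp1, Ptbp2 and double knockdown. Mbnl2 was at 51.7, 54.7, 46.4 and 52.5 CPM, with little difference between libraries.

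Hnrnpa2b1, an RNA-binding protein of nuclear ribonucleoproteins, had an untranslated 136-nucleotide exon (chr6:51411919-51412054, minus strand) at 57.2% in control, 69.9% after Ptbp1 depletion, 50.2% after Ptbp2 depletion and 84.7% after depletion of both, on 1115.5 to 2064.5 reads. The Ptbp1 and Ptbp2 knockdowns lay on opposite sides of control. Rbm39, a splicing factor related to U2AF, stood at 47.4%, 56.6%, 58.4% and 73.6% and Tnrc6c, a partner of Argonaute in silencing by miRNAs, at 83.3%, 94.05%, 94.5% and 98.9% in control, Ptbp1, Ptbp2 and double knockdown. Of these, the Rbm39 exon belongs to a nonsense-mediated decay transcript. Sympk encodes symplekin, a scaffold of mRNA 3′ end formation, and its untranslated 126-nucleotide exon (chr7:19613246-19613371, plus strand) stood at 0.415% (0 to 3.10) in control, 1.80% (0.496 to 6.33) after Ptbp1 depletion, 0.285% (0 to 2.15) after Ptbp2 depletion and 66.2% (59.9 to 72.1) after depletion of both. Ints10, a subunit of the Integrator complex, had a 78-nucleotide coding exon (chr8:71348089-71348166, plus strand) at 11.5% in control, 24.3% after Ptbp1 depletion, 20.2% after Ptbp2 depletion and 44.7% after depletion of both, and Nup54, a nucleoporin, a 162-nucleotide coding exon (chr5:92863248-92863409, minus strand) at 4.46%, 15.2%, 5.31% and 41.5% in the same order. The Nup54 rise was uneven between its junctions, 48.3 and 12.7 points.

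Chromatin and transcription genes held 5 members in 4 of 60 listed genes (6.67%, near the 6.26% of all genes), in Trerf1, Ssbp3, Kdm6a and Rfx3. Trerf1, a transcriptional regulator, gave 2 exons that share a start at position 47456301 of chromosome 17. The 327-nucleotide form stood at 57.7% in control, 39.1% after Ptbp1 depletion, 82.5% after Ptbp2 depletion and 87.2% after depletion of both, and the 267-nucleotide form at 67.03%, 46.5%, 79.1% and 87.9%. These were the only members at least 15 points below control in the Ptbp1 knockdown, with differences of -18.6 and -20.5 points. The rise of the junction that only 1 form uses was 41.1 points for the longer and 17.5 for the shorter, on 33 to 78.5 reads. Ssbp3, a cofactor of LIM-domain transcription complexes, stood at 52.4%, 49.2%, 76.3% and 70.3% in control, Ptbp1, Ptbp2 and double knockdown, highest in the Ptbp2 knockdown. The histone demethylase Kdm6a was at 77.4%, 92.3%, 80.4% and 95.2% on 21 to 26.5 reads, and its rise of 17.9 points (-3.27 to 37.7) had an interval that reached below 0. Rfx3, a regulator of cilia genes, stood at 83.6%, 90.7%, 79.8% and 100% in the same order.

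Synapse, adhesion, channel and transporter genes held 8 members in 6 of 50 genes (12%, against 6.26%), in Adam15, Agrn, Mpdz, Dlg1, Rims2 and Magi1. Agrn encodes agrin, the organiser of the neuromuscular synapse. Its 33-nucleotide exon (chr4:155541886-155541918, minus strand), not matched in the annotation, stood at 0.853% (0.296 to 1.94) in control, 8.77% (6.19 to 11.95) after Ptbp1 depletion, 1.24% (0.531 to 2.87) after Ptbp2 depletion and 30.96% (26.1 to 36.6) after depletion of both. The inclusion was low in the other 3 libraries, and the junctions rose unevenly, by 42.2 and 10.9 points. Adam15, a cell-surface metalloprotease, gave a 75-nucleotide exon at 73.7%, 84.3%, 81.7% and 96.1% and a 72-nucleotide exon at 23.5%, 27.5%, 51.2% and 55.1% in control, Ptbp1, Ptbp2 and double knockdown. The rise of the 72-nucleotide exon rested on 1 junction, 36 against -2.59 points on the other. Rims2, a scaffold of the presynaptic active zone, stood at 41.8%, 47.2%, 44.3% and 61.4%, and the synaptic scaffold Dlg1 at 35.8%, 49.4%, 52.6% and 54.3%. The junction adhesion scaffold Mpdz gave exons of 99 and 117 nucleotides at 55.6%, 67.9%, 62.9% and 77.6% and at 74.04%, 86.7%, 76% and 92.6%, and its relative Magi1 one at 74.6%, 84.8%, 88.99% and 91.4%. Of these scaffolds, Dlg1 had an interval of the rise that reached below 0, 18.5 points (-1.30 to 34.7).

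The remaining exons among the 24 widest rises were in Faim, Cnnm3 and 3830406C13Rik. Faim encodes an inhibitor of Fas-triggered apoptosis. Its 57-nucleotide exon (chr9:98891334-98891390, plus strand) stood at 15.9% (11.1 to 23) in control, 30% (23.6 to 37.3) after Ptbp1 depletion, 13.9% (9.34 to 19.5) after Ptbp2 depletion and 76.6% (69.97 to 82.2) after depletion of both. Cnnm3, of a family tied to magnesium transport, had a 99-nucleotide exon (chr1:36580879-36580977, plus strand) at 5.67% in control, 18.9% after Ptbp1 depletion, 5.29% after Ptbp2 depletion and 44.2% after depletion of both. The 126-nucleotide exon of 3830406C13Rik (chr14:13129136-13129261, plus strand) stood at 9.94%, 20.8%, 14.5% and 46.5% in the same order. In all 3 the Ptbp1 knockdown was above control, by 10.8 to 14.1 points, and the Ptbp2 knockdown lay within 5 points of it.

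Across the 24 widest rises, 23 had a lower bound of the difference at or above 15 points, 21 were multiples of 3 in length and 16 were wholly coding. On each junction alone, 21 of the 24 rose by 15 points or more, the exceptions being Nup54, Rgs7 and Sh3pxd2a, of which the last had no reads to compute one junction from. These 24 were ranked by that same difference, which the rule uses, so such counts follow in part from the ranking. Over all 159, the lower bound reached 15 points in 49, both junctions alone rose by 15 points in 82, and 1 junction gave a difference of 0 or below in 5, the exons of Rgs7 (81 nucleotides), Adam15 (72 nucleotides), Klc4, Prdm9 and Nap1l4. The Klc4 exon, on 20.5 to 30 reads, differed by 15.4 points on one junction and -36.8 on the other. By the deposited SpliceTrap ratio, which weighs exon coverage as well as junctions, 126 of the 159 were 15 points or more above control in the double knockdown and 33 were not. In 2 of the 33, named after their values were seen, that ratio was below control: Gm28551 differed by -7.80 points, against 25.3 by junctions, and Mapk1ip1 by -0.200 points, against 18.2.

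The Ptbp2 knockdown was not part of the rule, though it is compared with the same control. In it 105 of 159 members (66.0%) were above control at all, against 14.9% of measured exons and 46.1% of those that could rise. At least 15 points above control were 18 members (11.3%), against 0.0773% of measured exons and 2.37% of those that could rise. At least 15 points below were 6 (3.77%), against 0.288% and 6.13%. Most of the members, 135 of 159, lay within 15 points of control in the Ptbp2 knockdown, and 69 within 5 points. Lying near control is not particular to the members. Over the exons that could rise, the quartiles of this difference were -4.24 and 2.40 points. Among exons raised by 15 points in the Ptbp1 knockdown, 8.60% were 15 points above control in the Ptbp2 knockdown and 12.9% below. The members are limited to exons with a higher inclusion in the double knockdown, in which Ptbp2 is also depleted.

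**Figure D3:**
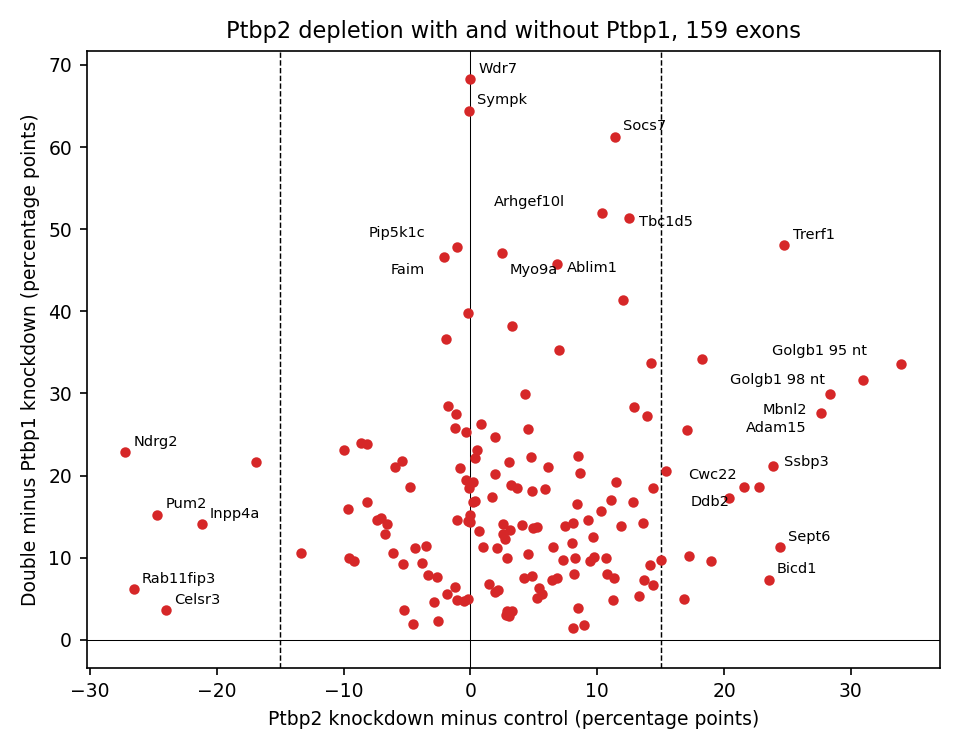
Each of the 159 members by its difference on Ptbp2 depletion with Ptbp1 present (Ptbp2 knockdown minus control, horizontal) and with Ptbp1 depleted (double minus Ptbp1 knockdown, vertical), in percentage points, with dashed lines at 15 points below and above 0. All members lie above 0 on the vertical axis, where the rule places them, while on the horizontal axis 18 lie at 15 or above and 6 at -15 or below. Ptbp1 was also lower in the double than in the Ptbp1 knockdown, so the vertical axis does not hold Ptbp2 depletion alone.

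The 18 exons raised by Ptbp2 depletion alone were both of Golgb1 and those of Mbnl1, Mbnl2, Adam15 (72 nucleotides), Trerf1 (327 nucleotides), Sept6, Ssbp3, Bicd1, Cwc22, Ddb2, Dgkh, Exoc1, Hps5, Pbrm1, Dlg1, Dot1l and 1700017B05Rik. The interval of their difference from control lay above 0 in 14 of 18. Sept6, a septin, stood at 55.8%, 69.2%, 80.2% and 80.5% in control, Ptbp1, Ptbp2 and double knockdown, so both depletions of Ptbp2 gave nearly the same inclusion. Pbrm1, a subunit of a chromatin remodeller, was at 35.1%, 40.9%, 52.3% and 51.1% and Cwc22, a spliceosome factor that loads the exon junction complex, at 50.2%, 48.8%, 72.97% and 67.4%. Bicd1, an adaptor of dynein, stood at 45.2%, 54.4%, 68.7% and 61.7% and Ddb2, a sensor of ultraviolet DNA damage, at 56.5%, 58.1%, 78.1% and 76.6%. With Ssbp3, these 4 were the 5 exons whose inclusion was highest in the Ptbp2 knockdown. The histone methyltransferase Dot1l was at 57.3%, 56.2%, 72.8% and 76.8% on 32 to 73.5 reads, but at 11.3%, 18.2%, 18.8% and 19.8% by the SpliceTrap ratio, and 1700017B05Rik at 77.2%, 88.4%, 92.2% and 98.1%.

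The 6 members lowered by Ptbp2 depletion alone were in Capn15, Pum2, Inpp4a, Ndrg2, Celsr3 and Rab11fip3, and the interval lay below 0 in 5 of them. Celsr3, a cadherin of axon guidance, stood at 65% in control, 77.6% after Ptbp1 depletion, 40.95% after Ptbp2 depletion and 81.2% after depletion of both, a difference of -24.05 points (-39.02 to -6.21) on Ptbp2 depletion. Rab11fip3, an effector of Rab11 in recycling, stood at 81.7% in control, 90.9% after Ptbp1 depletion, 55.2% after Ptbp2 depletion and 97.04% after depletion of both, a difference of -26.6 points (-39 to -12.2). In both genes the Ptbp1 and double knockdowns were near each other and the Ptbp2 knockdown was apart. Inpp4a, a phosphatase of phosphoinositides, had a 33-nucleotide coding exon at 70.5%, 72.97%, 49.3% and 87.04% in control, Ptbp1, Ptbp2 and double knockdown. The exons of Capn15, a calpain protease, Pum2, a repressor of translation, and Ndrg2, a stress-responsive gene, stood at 48.5%, 51.9%, 31.6% and 73.6%, at 44.7%, 52.2%, 20% and 67.5% and at 52.2%, 45.8%, 25% and 68.6% in that order. Reads for these 3 were few, from 20 to 102.

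In the Ptbp1 knockdown 9 members were at least 5 points below control: both of Trerf1 and those of Fetub, Armcx5, Klc4, Mbnl1, Ppip5k1, Enox2 and Ndrg2. Ppip5k1, a kinase of inositol pyrophosphates, had a 63-nucleotide coding exon at 48.4% in control, 41.7% after Ptbp1 depletion, 47.3% after Ptbp2 depletion and 69.3% after depletion of both. Fetub, the secreted protein fetuin-B, stood at 15.6%, 10.1%, 22.5% and 45.4%, Armcx5 at 43.9%, 34.5%, 56.7% and 62.8% and Enox2 at 62.7%, 56.1%, 54.5% and 80% in the same order. These values were lower than control, but the interval of the Ptbp1 difference lay below 0 in only 1 of the 159 members.

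Length and reading frame were not used by the rule beyond the limit of 27 nucleotides. The members had a median length of 96 nucleotides, from 28 to 843, with 50% of them between 65.5 and 133. Exons of at most 60 nucleotides were 20.1% of the members, 29.0% of the 279 exons raised in the Ptbp1 knockdown and 19.0% of the exons that could rise. A length that is a multiple of 3, which keeps the reading frame, was found in 90 of 159 (56.6%), against 71.7% of the exons raised in the Ptbp1 knockdown, 51.5% of those that could rise and 38.8% of all measured exons. The annotation differed from that of the exons raised in the Ptbp1 knockdown along with the frame. Wholly coding were 77 members (48.4%), against 68.8% of the exons raised in the Ptbp1 knockdown and 44.6% of those that could rise. Another 21 were coding and untranslated (13.2%, against 7.61% of those that could rise) and 18 untranslated (11.3%, against 14.2%). In nonsense-mediated decay transcripts were 23 (14.5%, against 17.3%) and in non-coding transcripts 10 (6.29%, against 8.54%). The last 10 were not matched (6.29%, against 7.77%). Among wholly coding members 63 of 77 (81.8%) kept the frame, against 84.9% of wholly coding exons raised in the Ptbp1 knockdown and 71.5% of those that could rise. These shares carry no test, and the sets overlap with the background.

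**Figure D4:**
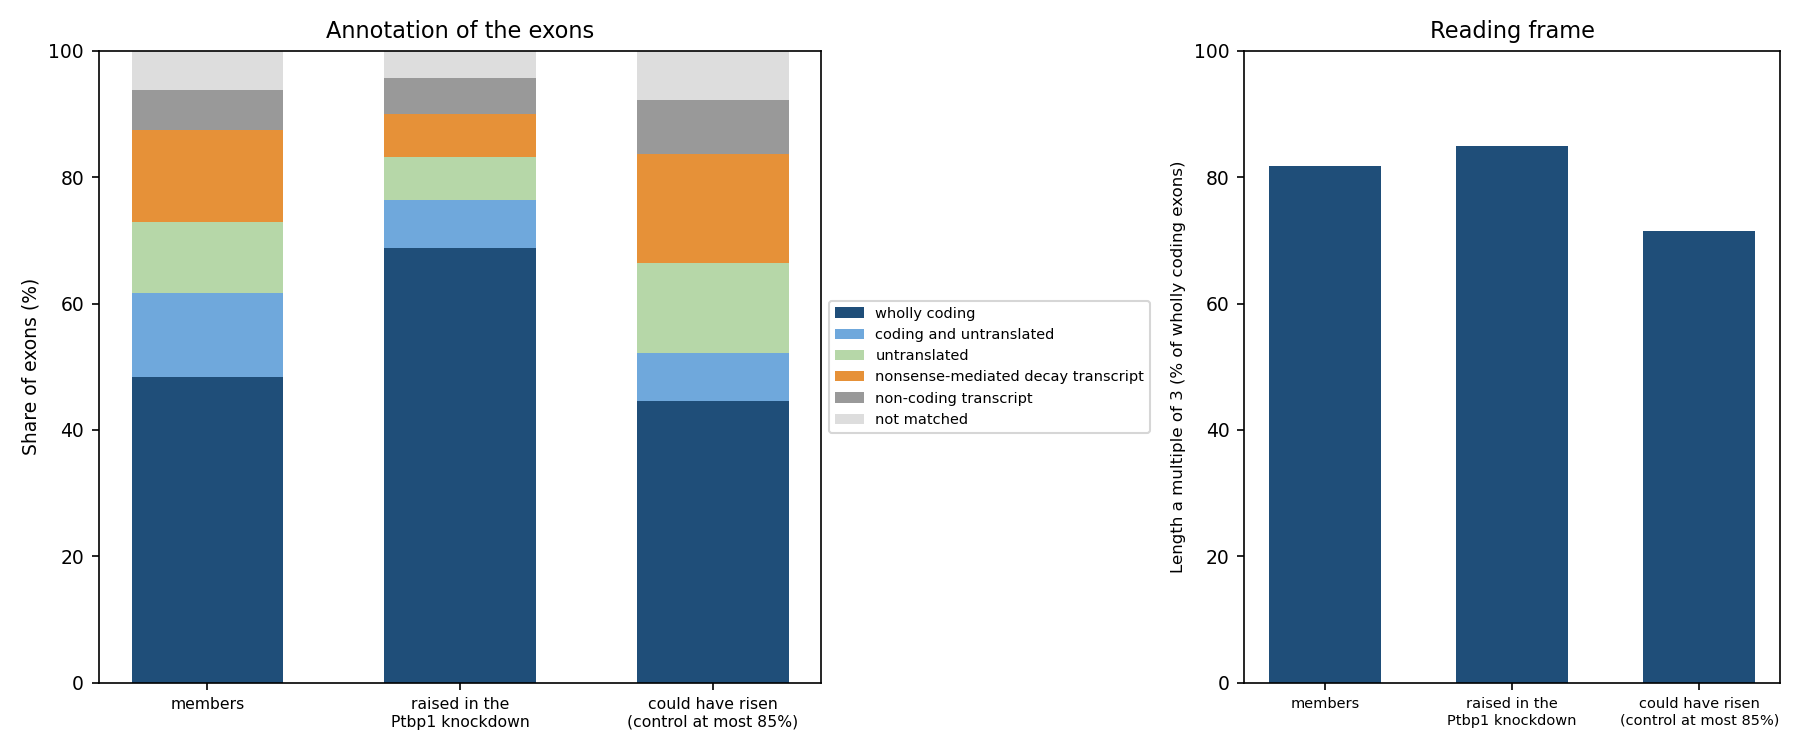
Left, the share of exons in percent by their place in the GENCODE annotation, for the 159 members, the 279 exons raised in the Ptbp1 knockdown and the 3244 exons with a control inclusion of at most 85%. Right, the share of wholly coding exons in each set with a length that is a multiple of 3. Wholly coding exons are 48.4% of the members, 68.8% of the Ptbp1 set and 44.6% of the exons that could rise. The frame shares of wholly coding exons are 81.8%, 84.9% and 71.5% in the same order.

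Sequence was available for 149 of the 159 members, from transcripts of the annotation. The median pyrimidine content of the whole exon was 53.0%, against 51.4% in the exons raised in the Ptbp1 knockdown, 48.8% in those that could rise and 47.1% in all measured exons. CTCT occurred in the last 28 bases of 20.1% of the members, against 13.7% of the exons that could rise and 11.1% of all, and its reverse complement AGAG in 10.7%, against 17.01% and 18.01%. In the first 28 bases CTCT occurred in 16.1%, 14.4% and 10.9% of the same sets, and AGAG in 12.1%, 16.04% and 14.7%. TCTT in the last 28 bases was found in 15.4%, 11.1% and 10.1%, and AAGA in 16.1%, 17.8% and 20.4%. TTCT in the last 28 bases was found in 18.1%, 13.2% and 11.04%, and AGAA in 14.8%, 18.05% and 21.8%. The exons raised in the Ptbp1 knockdown were close to the members in the last window for these words, with CTCT in 20.6% and TTCT in 16.5%. Their reverse complements differed more there, with AGAG in 19.5%, against 10.7% of the members, and AGAA in 10.1%, against 14.8%. In the first window the same exons held CTCT in 20.97%, against 16.1% of the members, and AGAG in 14.2%, against 12.1%. TTCT in the first window was found in 16.1% of the members and AGAA in 16.8%. CTCT and TTCT can overlap in 1 exon. Intron sequence, in which the proteins often bind, was not analysed here. These matches describe letters in the exons and are not binding sites.

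The genes that hold the members differed little in level. Over 149 genes the median log2 difference from control was -0.02, -0.04 and -0.02 in the Ptbp1, Ptbp2 and double knockdowns, against -0.04, 0.00 and -0.02 over all 11002 genes, on the scale of log2(CPM + 0.1). Scaling by total reads moved the medians of all genes and of member genes alike. With either scaling the member median lay 0.02 above that of all genes in the Ptbp1 knockdown, 0.04 below it in the Ptbp2 knockdown and 0.01 below it in the double knockdown. By the deposited FPKM, over 111 member genes, the member median minus that of all genes was 0.11, -0.02 and 0.14 in the same libraries, so its sign in the double knockdown depends on the measure. In the double knockdown 5 of 149 genes differed by 2-fold or more (background 2.66% of all genes), Tanc2 higher and Lss, Tpm3, Sumf2 and Mbnl1 lower. The counts were 2 in the Ptbp1 knockdown (background 3.15%) and 4 in the Ptbp2 knockdown (background 2.51%). Tanc2 (its exon named after its values were seen), a scaffold of the postsynapse, stood at 111, 156, 197 and 228 CPM in control, Ptbp1, Ptbp2 and double knockdown, while its 30-nucleotide coding exon (chr11:105775355-105775384, plus strand) was included at 4.31%, 11.02%, 4.22% and 29.5%. Tpm3 stood at 311, 144, 404 and 139 CPM, lower in both libraries with Ptbp1 depleted. Lss, the lanosterol synthase of the cholesterol pathway, stood at 172, 89.2, 130.4 and 62.5 CPM. The 23 genes with a member in a nonsense-mediated decay transcript had medians of -0.30, 0.00 and -0.14 in the Ptbp1, Ptbp2 and double knockdowns, with 7, 11 and 7 of 23 above control, where 45.6%, 50.2% and 48.3% of all genes were. The 73 genes with a wholly coding member had medians of 0.01, -0.09 and 0.03, with 38, 27 and 39 above control.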

How the data were processed

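The submitters' processing notes name CASAVA, TopHat and Cufflinks and the build mm9, without versions. The deposited SpliceTrap tables hold junction read counts for trios of exons, the inclusion ratio as a fraction and exon coverage as a signal, per the file headers. The deposited transcript tables hold FPKM and the deposited assemblies a score column, which was not used. From the counts, inclusion was computed for 178785 distinct exons above 27 nucleotides, with the trio row of most control reads per exon and at least 20 reads in each library. Wilson and Newcombe intervals (95%) used rounded reads. Since reads carry no molecular identifiers and each inclusion value averages 2 junctions, the intervals cover counting error only and are approximate. Where no inclusion read was seen, the inclusion that a 0 allows was taken as 3 over the reads, which is below the upper Wilson bound. Exon coverage was turned into reads (coverage times size over 100), summed per gene, put on a common scale by the median of ratios between libraries, and given as log2(CPM + 0.1) where a gene reached 1 CPM. Genes were named by exon and intron lengths in GENCODE M21 and by RefSeq transcripts of the assemblies; 95.3% of trios matched 1 symbol by structure, and of 184334 trios named both ways 99.8% had the same symbol. Exons named in the text are the 24 with the widest rise, the 6 nearest each limit on either side, all members of fixed gene lists, those 15 points or more from control in the Ptbp2 knockdown and those 5 points or more below control in the Ptbp1 knockdown. Nested forms, Plec, R3hdm2 and the others named outside this rule were chosen after their values were seen. Some items that the rule names are not reported here. The members and lists were chosen with earlier results of these data known. The planned search of intron sequence was replaced by the exon ends because no genome sequence was used here. The script was tested on simulated junction reads. Python 3.11.15, pandas 2.3.3, NumPy 2.4.6 and matplotlib 3.10.9 were used. Alternatives covered the read minimum, the threshold, the measure, single junctions, the trio row and gene scaling.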

Additional observations from a re-analysis of the deposited data

Results flagged for a closer look

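In 3 exons the differences on Ptbp2 depletion with Ptbp1 present and with Ptbp1 depleted were of opposite sign, by at least 15 points each way. The difference between the contrasts was not tested, since each library is single. Ptbp1 was at 142 CPM in the double knockdown and 188 in the Ptbp1 knockdown, so the contrast with Ptbp1 depleted also holds less Ptbp1. The 289-nucleotide exon of Capn15 differed by -16.9 points (-36.3 to 3.63) between the Ptbp2 knockdown and control. Between the double and the Ptbp1 knockdown it differed by 21.6 points (3.50 to 37.7). For the 74-nucleotide exon of Pum2 the same differences were -24.7 (-42.2 to -2.55) and 15.2 points (-3.96 to 32.6), and for the 42-nucleotide exon of Ndrg2 they were -27.2 and 22.8 points. In each of these exons an interval of the pair included 0, so the counting error alone leaves the reversal uncertain. By the deposited SpliceTrap ratio the Capn15 exon stood at 22.9%, 31%, 20.7% and 47.7% in control, Ptbp1, Ptbp2 and double knockdown, the Pum2 exon at 36.6%, 42.8%, 20.4% and 63.2% and the Ndrg2 exon at 60%, 58.6%, 34% and 75.4%. The rule favours a high double knockdown, so the second value of each pair is not independent of it. Reads were fewest in Ndrg2, with 20 in the Ptbp2 knockdown and 29.5 in the Ptbp1 knockdown, and its intervals on the 2 contrasts ran from -46.2 to -2.33 and from -1.96 to 42.8 points.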

How the results depend on the processing

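The number of members ran from 107 to 229 over the alternatives: 198 with a minimum of 10 reads, 107 with 50, 229 with a threshold of 10 points (92 shared), 119 with 20 (83 shared), 167 by the SpliceTrap ratio (110 shared, 69.2% of the 159 and 65.9% of the 167), 182 and 145 by a single junction (109 and 82 shared), and 121 with both junctions within 4-fold. Members at least 15 points above control in the Ptbp2 knockdown numbered 18, but 9 with 50 reads, 30 by the SpliceTrap ratio, 32 by the junction of exons 2 and 3 alone, and 0 when that library was added to the rule. Those at least 15 points below numbered 6, but 2 with 50 reads and 10 with a threshold of 10 points. The frame-keeping share of 56.6% was 65.4% with 50 reads, 69.7% with 20 points and 81.8% among wholly coding members. By the junction of exons 2 and 3 alone the rise turned to -1.94 points in Rgs7 (81 nucleotides), -2.59 in Adam15 (72 nucleotides) and -36.8 in Klc4, and Sh3pxd2a gave no value; the cause was not tested. The median of member genes became 0.18 in the Ptbp1 and 0.11 in the double knockdown with total reads, which moved the median of all genes by about as much, to 0.16 and 0.12, and 0.11 and 0.14 with FPKM over 111 member genes. No paired analysis was possible because each group had 1 library, and no replicate could be left out. The alternative of 250 in place of 100 intron bases was not run. Backgrounds of exons with control inclusion of at most 85%, overlapping exons counted once, the exon ends and the wholly coding members were added after the data were seen. Members had a median of 105 control reads. Over all depths 18 of the 159 rises had intervals that reached 0, among them that of Atxn1l on 20 control reads.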

Other observations

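Some members outside the naming rule are given here as values, chosen after they were seen. Ganab, the catalytic subunit of glucosidase II in the endoplasmic reticulum, had a 66-nucleotide coding exon (chr19:8982341-8982406, plus strand) at 35.8% (33.3 to 38.4) in control, 47.1% (44.1 to 50.1) after Ptbp1 depletion, 30.4% (27.8 to 33.2) after Ptbp2 depletion and 68.9% (66.2 to 71.4) after depletion of both, on 1035.5 to 1358 reads per library. Srsf9, a splicing factor of the SR family, had a 90-nucleotide exon of a nonsense-mediated decay transcript (chr5:115781459-115781548, plus strand) at 8.02% (7.09 to 9.02) in control, 14.6% (13.1 to 16.4) after Ptbp1 depletion, 15.5% (14.2 to 16.9) after Ptbp2 depletion and 28.5% (26.7 to 30.4) after depletion of both. Each single knockdown of Srsf9 was above control and the double knockdown above both. R3hdm2, a protein with the R3H domain that binds nucleic acids, had its 102-nucleotide exon at 16.7% (14.5 to 19.2) in control, 30.4% (27.4 to 33.6) after Ptbp1 depletion, 20.4% (17.9 to 23.1) after Ptbp2 depletion and 48.9% (45.5 to 52.3) after depletion of both. The nested 63-nucleotide form stood at 4.93%, 11.2%, 7.68% and 23.5% in control, Ptbp1, Ptbp2 and double knockdown, but the junction it does not share with the longer form rose by 0.356 points only.

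The exons of Plec, Mtcl1, Crtc2 and Stam2 were almost never used in control. Plec, the cytoskeletal linker plectin, had a 36-nucleotide coding exon at 0 of 146 reads in control, which allows up to 2.05%, and at 5.66%, 0.518% and 28.7% in the Ptbp1, Ptbp2 and double knockdowns. Mtcl1, a regulator of microtubules, stood at 0.389%, 3.91%, 0% and 23.4% (the 0 of 132 reads allows up to 2.27%) and Crtc2, a coactivator of CREB, at 0.389%, 2.10%, 2.32% and 22.3% in the same order. Stam2, an adaptor that sorts ubiquitinated cargo, had a 189-nucleotide exon with no inclusion read in control, Ptbp1 or Ptbp2 knockdown, of 164, 82 and 197 reads, which allow up to 1.83%, 3.66% and 1.52%, and 15.2% in the double knockdown.

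Lrrfip2, an adaptor of innate immune and Wnt signalling, had a 102-nucleotide exon at 80%, 86.1%, 70.8% and 95.7% in control, Ptbp1, Ptbp2 and double knockdown, and at 29.1%, 72.6%, 31.7% and 95.8% by the SpliceTrap ratio. It had 11 times the junction reads of control in the double knockdown, 440 against 40, while its gene stood at 109 CPM in control and 93.1 in the double knockdown. With Actn1, it was 1 of 2 members whose reads differed over 4-fold between these libraries.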
